A study of Homo sapiens with 8 samples.

Results

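The HOX genes of the 4 human clusters HOXA, HOXB, HOXC and HOXD were examined for binding of the transcriptional co-activator TAZ. The members were the GENCODE protein-coding genes whose symbol is HOX, a cluster letter from A to D and a number, which gave 39 of 20033 protein-coding genes. TAZ peaks were assigned to a cluster when the summit lay inside it or within 100 kb of its outermost genes. In cells without doxycycline (Dox) 4 of 2431 peaks met this rule, followed by 3 of 2469 after 24 h of Dox, 7 of 11767 after 48 h and 42 of 38667 after 72 h.

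TAZ binding was profiled by ChIP-seq in MCF10A, an immortalised, non-tumorigenic line of human breast epithelium. All cells, untreated ones included, had been transduced with TAZ-4SA under a Dox-inducible promoter. TAZ-4SA is a mutant form of TAZ with serine sites changed so that it escapes inhibition by the Hippo kinases. Cells were left without Dox or were given 0.05 µg/ml Dox for 24, 48 or 72 h, and every condition had 1 TAZ library and 1 IgG library, or 8 in total. Each condition had a single peak list, which the labels attach to both of its libraries. Without replicate libraries no difference between times was tested, and the intervals below are 95% intervals that cover counting error only. The antibody was directed at TAZ, so signal from endogenous TAZ and from TAZ-4SA cannot be told apart.

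HOX genes encode homeodomain transcription factors that give cells their position along the body axis. In each cluster they lie in 1 orientation, and genes with low numbers at the 3′ end act earlier and more anteriorly than genes with high numbers at the 5′ end. Polycomb complexes hold silent HOX genes in compacted chromatin, trithorax-type complexes containing KMT2A keep active ones open, and retinoic acid receptors act on the 3′ genes. TAZ itself does not bind DNA and is brought to chromatin mainly by TEAD factors, often beside AP-1.

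The strongest peaks and those found at every Dox time are shown first. They set a flank site with the full TEAD consensus beside summits without it in the printed stretch. Each line gives the base under the 72 h summit and 50 bases to each side, on the + strand of hg38, with the TEAD consensus (ACATTCC or GCATTCC, either strand) and the AP-1 consensus (TGACTCA or TGAGTCA) in capitals where they occur. The line for HOXC12 was added after its values were seen.
HOXC 5′ flank, chr12:53845145-53845245: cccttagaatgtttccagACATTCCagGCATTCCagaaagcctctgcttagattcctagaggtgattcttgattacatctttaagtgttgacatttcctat
HOXA3 and HOXA-AS2 intron, chr7:27110863-27110963: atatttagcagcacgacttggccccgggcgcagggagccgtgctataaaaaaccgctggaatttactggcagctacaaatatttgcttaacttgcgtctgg
HOXA 3′ flank, chr7:27082309-27082409: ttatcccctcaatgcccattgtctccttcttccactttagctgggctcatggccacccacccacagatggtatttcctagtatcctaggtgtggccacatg
HOXC12 upstream, chr12:53953211-53953311: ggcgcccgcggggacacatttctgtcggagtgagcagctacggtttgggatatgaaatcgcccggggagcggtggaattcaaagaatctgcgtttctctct
HOXB 3′ flank, chr17:48483855-48483955: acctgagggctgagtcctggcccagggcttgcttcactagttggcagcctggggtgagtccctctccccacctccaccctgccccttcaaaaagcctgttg
HOXD 3′ flank at MTX2, chr2:176269377-176269477: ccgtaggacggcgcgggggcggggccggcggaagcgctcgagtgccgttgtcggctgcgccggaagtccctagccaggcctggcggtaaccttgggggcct

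Of these 6 sequences, only the HOXC flank holds a TEAD consensus in the printed stretch, where a pair of them follow each other on the same strand with 2 bases between. The HOXA and HOXB 3′ flank summits have 1 TEAD consensus each when 100 bases to each side are read at 72 h. No AP-1 consensus occurs in any of the 6 lines. The shorter core GGAAT, read on either strand, also occurs in the HOXA3 intron and HOXC12 lines.

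The clusters took up TAZ peaks very unevenly. The HOXA window held 3, 2, 3 and 20 peaks in the lists for no Dox, 24, 48 and 72 h (95% Poisson interval at 72 h 12.2 to 30.9). The HOXC window held 1, 1, 3 and 13 peaks (6.92 to 22.2 at 72 h), the HOXB window 0, 0, 1 and 6 (2.20 to 13.1), and the HOXD window 0, 0, 0 and 3 (0.619 to 8.77). The intervals of HOXA and HOXD at 72 h did not overlap, whereas those of every other pair of windows did. A count of 0 in a window has an upper limit of 3.69 peaks.

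Most of the difference lay inside the clusters. Inside HOXA, which spans 107 kb from chr7:27092993-27200091, 19 summits were called at 72 h, or 177 per Mb (107 to 277), against 13.1 per Mb in the whole list. HOXC (chr12:53938831-54056030) held 6, or 51.2 per Mb (18.8 to 111). HOXB (chr17:48528526-48728750) held 3, or 14.98 per Mb (3.09 to 43.8), and HOXD (chr2:176092721-176190907) held 1, or 10.2 per Mb (0.258 to 56.7). Thus the HOXB and HOXD intervals include the density of the list and those of HOXA and HOXC lie above it. The clusters hold many genes in little sequence, and density was not matched for that.

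The covered sequence gave the same order. At 72 h peaks covered 17.7% of HOXA, 6.92% of HOXC, 1.24% of HOXB and 0.858% of HOXD. Neighbouring HOXA summits stood a median of 3.84 kb apart. In HOXD a stretch of 93.3 kb, from the summit between HOXD13 and HOXD12 to the 3′ end of HOXD1, held no summit, and in HOXB a stretch of 102 kb from the HOXB9 summit to HOXB13 held none.

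**Figure D1:**
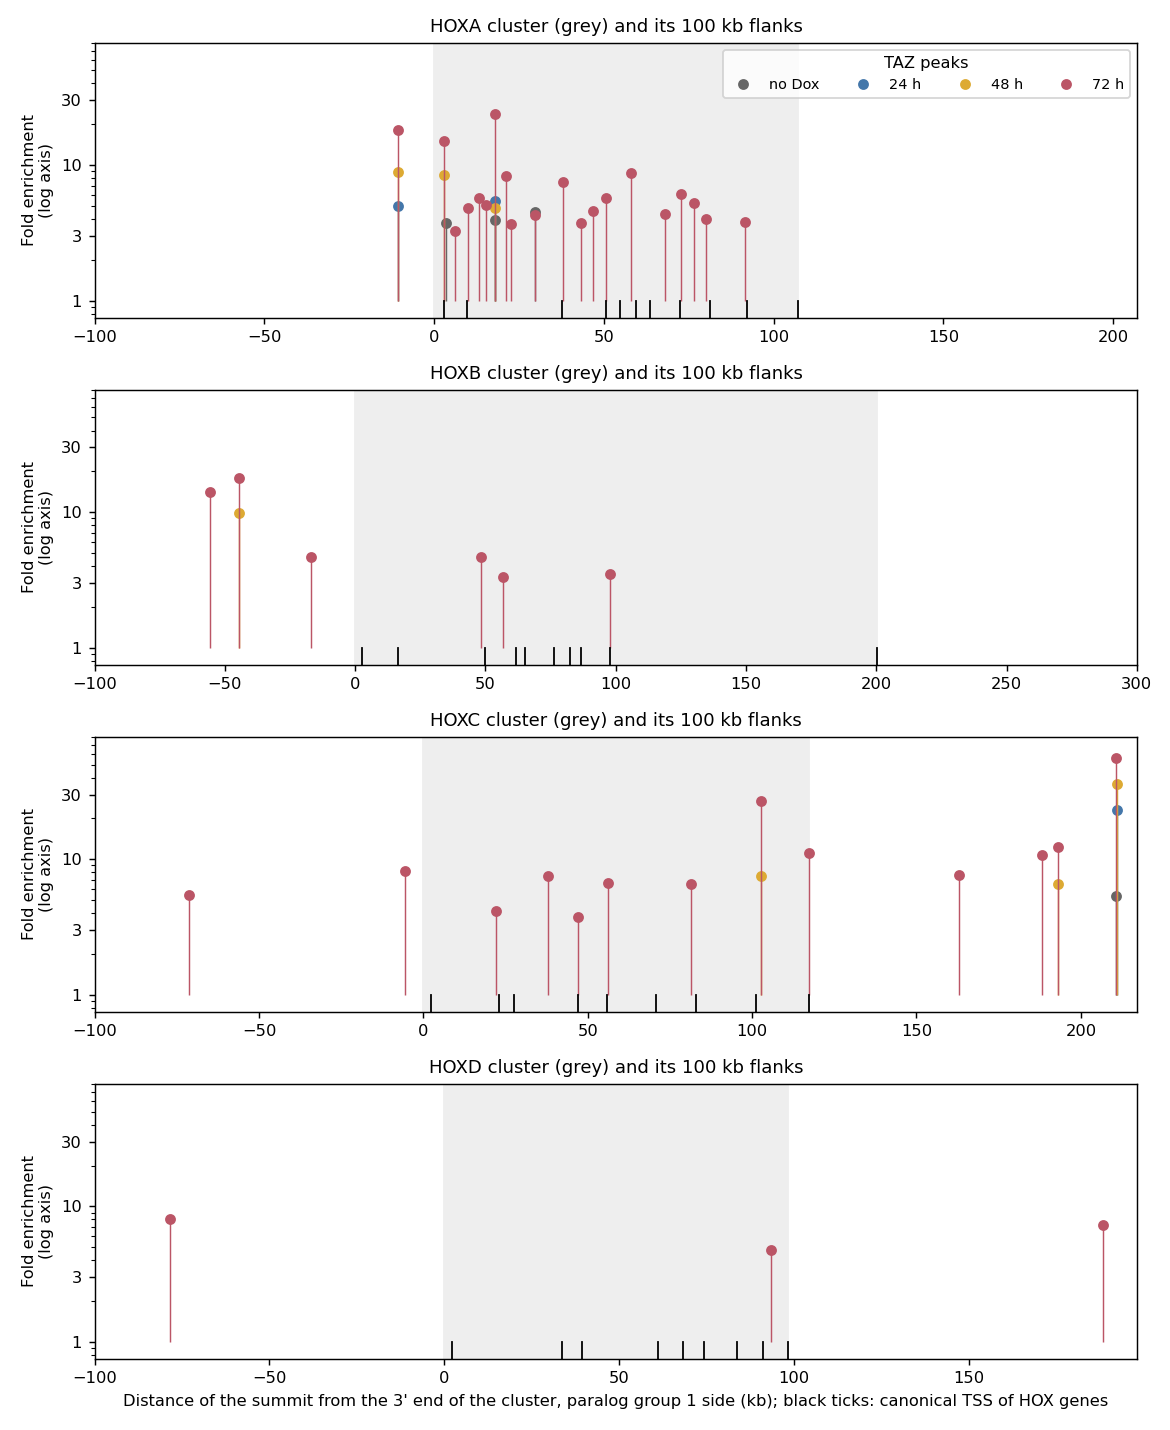
Fold enrichment of every TAZ peak (vertical axis, log scale) against the distance of its summit in kb from the 3′ end of each cluster (horizontal axis), with points coloured by time on Dox, the cluster in grey and HOX start sites as black ticks. HOXA is filled with peaks at 72 h, HOXD has 1 inside the cluster, and the tallest point, at 56.0, stands in the HOXC 5′ flank.

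**Figure D2:**
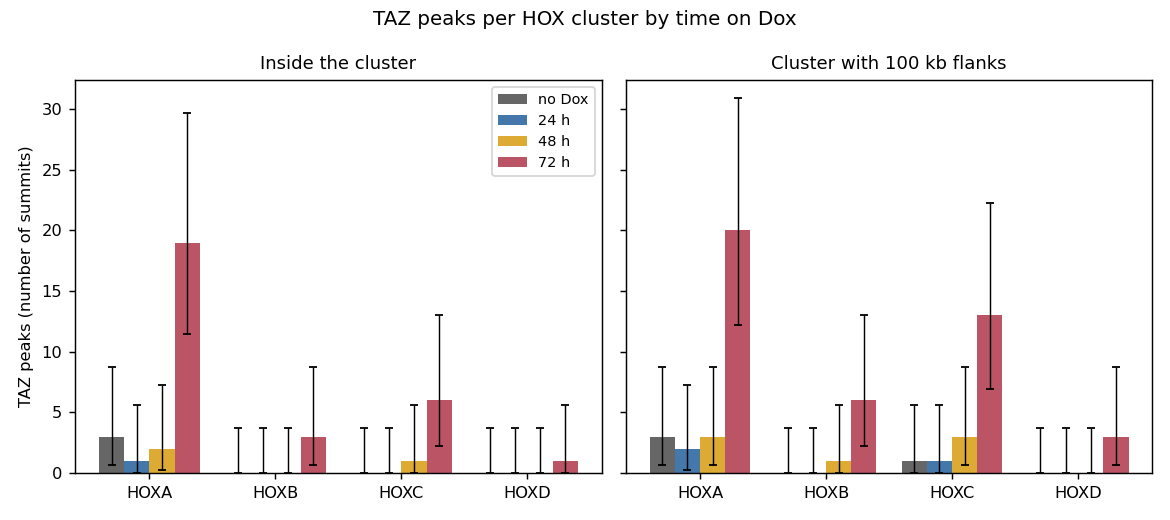
Number of TAZ summits (vertical axis) in each HOX cluster (horizontal axis) by time on Dox, inside the cluster on the left and with flanks of 100 kb on the right, with bars as counts and error lines as 95% Poisson intervals. HOXA rises to 19 inside the cluster and 20 with flanks at 72 h, while HOXD stays at 1 and 3.

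Peaks inside the clusters were numerous but mostly of modest height. Fold enrichment, the ratio of the ChIP signal at the summit to the local background, had a median of 4.78 over the 29 summits inside the clusters at 72 h, with a range from 3.29 to 27.0. Only 7 of the 29 were above the median of the whole list, 7.17. The 13 flank peaks had a median of 10.7, a range from 4.66 to 56.0, and 11 above the list median. The local background had a median of 3.40 fragments over all 42 window peaks together and 3.55 over all peaks at 72 h. It ranged from 2.04 to 7.10 inside the clusters and from 2.01 to 5.62 in the flanks.

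Within HOXA the earliest peaks sat at the 3′ end. Every peak called inside HOXA before 72 h, 3 without Dox, 1 at 24 h and 2 at 48 h, lay in the 3′-most of 3 equal segments. That segment contains HOXA2 and the 3′ part of the long HOXA3 locus. The 24 and 48 h peaks overlapped those called without Dox, so they add no further positions. The 3 without Dox rested on 12 to 16 fragments. At 72 h the 3′, middle and 5′ segments held 9, 6 and 4 summits. The counts were lower toward the 5′ end, and with so few summits their counting intervals overlap. HOXC showed no such order, with 2 summits in each segment at 72 h and its single 48 h summit in the 5′ segment.

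Merging overlapping peaks of the 4 lists gave 42 regions, and 34 of them were called at 72 h only. Another 3 were shared by the 48 and 72 h lists, 1 by the 3 Dox lists, and 2 by all 4 lists. A further 2 were called without Dox and again later, 1 at 48 and 72 h and 1 at 72 h, with gaps between. Every window peak of an earlier list overlapped a 72 h peak by at least 1 bp. Where a region lacked a peak in a list, the signal there was not analysed, so a gap means only that no peak was called.

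The outermost HOXC region was the strongest site of all 4 windows in each of the 4 lists. It lies in an intron of the long non-coding RNA (lncRNA) gene ENSG00000286069, 93.6 kb upstream of HOXC13, and it holds the pair of TEAD consensus sequences printed above. Its fold enrichment was 5.35 in untreated cells and 23.3, 35.7 and 56.0 after 24, 48 and 72 h of Dox. The summit fragments behind these values numbered 19 (11.4 to 29.7), 69 (53.7 to 87.3), 189 (163 to 218) and 287 (255 to 322). Divided by the background coverage of each list as read from its peaks, they gave 12.7 (7.67 to 19.9), 48.7 (37.9 to 61.6), 66.5 (57.3 to 76.7) and 143 (127 to 161). On this scale the intervals for 24 and 48 h overlap, and the other neighbouring times do not. At 72 h 99.7% of the peaks in the list were weaker. The site lies near the outer limit of the window, and the nearest summit beyond that limit, at the promoter of SMUG1 on the other side of the cluster and 133 kb from it, had a fold of 16.6.

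The second region found in every list lay in an intron shared by HOXA3 and HOXA-AS2, 2.91 kb from an annotated start of the antisense gene. HOXA3 patterns pharyngeal organs such as the thymus and parathyroid. Fold enrichment there was 3.94 in untreated cells and 5.40, 4.82 and 23.9 after 24, 48 and 72 h. The summit fragments were 16, 20, 40 and 86 and the background-scaled values 10.7, 14.1, 14.1 and 42.9. The first 3 times were close together and the 72 h value stood apart. At 48 h the local background was 7.51 fragments, against 2.64 to 3.32 at the other times, which lowers the fold at 48 h.

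A region at an alternative start of HOXA-AS2 within HOXA3 had nearly equal folds without Dox, 4.49, and at 72 h, 4.28, on 12 and 21 fragments, whose intervals overlap.

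Other early sites were in the flanks or upstream of a gene. The HOXA 3′ flank site, 10.6 kb beyond the 3′ end of the cluster and intergenic, had folds of 4.99, 8.89 and 18.1 at 24, 48 and 72 h. The HOXB 3′ flank site, 47.1 kb downstream of the HOXB1 start, went from 9.86 at 48 h to 18.0 at 72 h. The HOXC12 site, 1.64 kb upstream of that posterior gene, went from 7.47 to 27.0, and its 30 (20.2 to 42.8) and 90 (72.4 to 111) fragments do not overlap in their intervals, nor do the background-scaled values of 10.6 (7.12 to 15.1) and 44.9 (36.1 to 55.2). A second HOXC 5′ flank site went from 6.54 to 12.2. All 4 had a higher fold and a higher background-scaled value at each later list in which they were called.

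**Figure D3:**
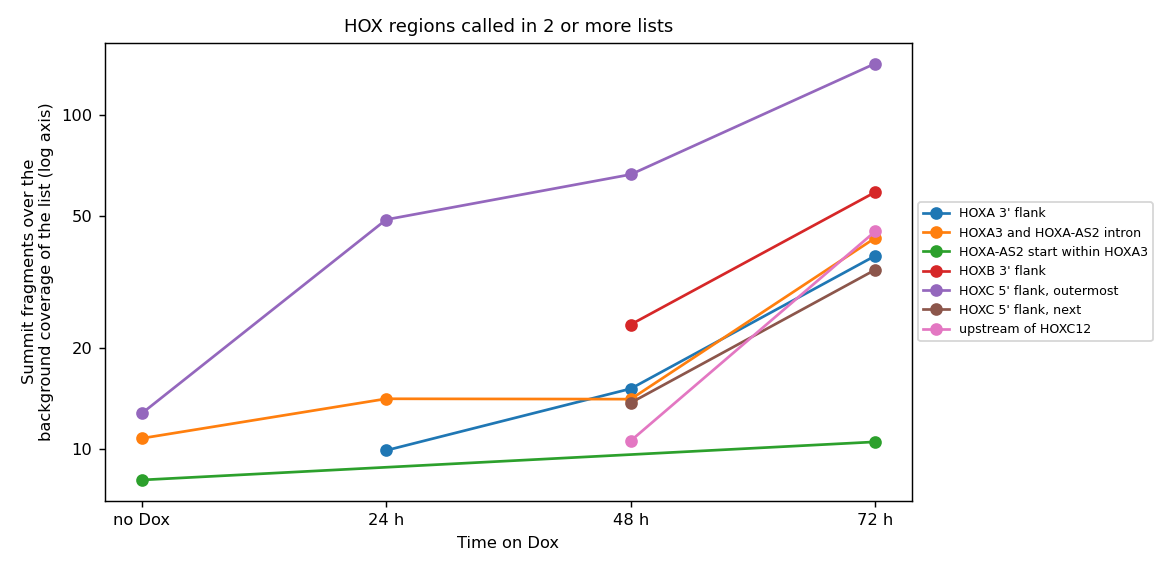
Summit fragments divided by the background coverage of the list (vertical axis, log scale) at each time on Dox (horizontal axis) for 7 of the 8 HOX regions called in 2 or more lists, with 1 line per region and points only where a peak was called. The outermost HOXC flank region leads at every time, from 12.7 without Dox to 143 at 72 h, and the HOXA-AS2 start within HOXA3 is lowest at 72 h.

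A gene was counted as carrying a peak at its start when a summit lay no more than 3 kb from a transcription start site (TSS), with every annotated transcript considered. Without Dox 2 of 39 HOX genes carried one, against 9.4% of all protein-coding genes. After 24 h of Dox it was 1 of 39 (all genes 2.55%), after 48 h 3 of 39 (9.09%) and after 72 h 21 of 39 (58.4%). The HOX share at 72 h, 53.8% (exact binomial interval 37.2 to 69.9), thus had an interval that included the share of all genes, and this held at the earlier times as well. Some neighbouring genes share a peak, such as HOXB3 and HOXB4 or HOXC4 and HOXC6, and some genes have several, so that the 21 genes rested on 24 summits. With the canonical start alone 17 genes (43.6%, 27.8 to 60.4) rested on 17 summits, against 53.3% of all protein-coding genes counted that way.

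The clusters differed much more than the whole. At 72 h 9 of 11 HOXA genes (81.8%, 48.2 to 97.7) and 8 of 9 HOXC genes (88.9%, 51.8 to 99.7) carried a peak, against 3 of 10 HOXB genes (30%, 6.67 to 65.2) and 1 of 9 HOXD genes (11.1%, 0.281 to 48.2). The HOXD interval lies below the 58.4% of all genes. The HOXC interval does not overlap that of HOXD, and the HOXA interval overlaps it only at its edge. With the canonical start alone the counts were 8 of 11 in HOXA (72.7%, 39.03 to 94.0), 6 of 9 in HOXC (66.7%, 29.9 to 92.5) and 1 of 9 in HOXD, and both intervals then overlap that of HOXD. The share of all protein-coding genes was then 53.3%. Genes of a cluster are not independent, and these intervals treat them as if they were.

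In HOXA the peaks ran over nearly the whole row of genes. The folds at 72 h were 4.78 at HOXA2, 23.9 at HOXA3, 7.54 at HOXA4, 5.70 at HOXA5, 8.80 at HOXA6, 6.15 at HOXA9, 3.996 at HOXA10 and 3.82 at HOXA11. HOXA5 is known for its part in lung development, HOXA9 as a target of KMT2A fusions in leukaemia, and HOXA10 and HOXA11 for uterus and limb. Among these genes the value was highest at HOXA3 and lowest at HOXA10 and HOXA11. The HOXA3 value came from the intron site found in every list, just inside the limit of 3 kb from an internal start. HOXA3 also has long transcripts that start at neighbouring genes. Around its canonical start alone the fold was 8.80, from the same summit as HOXA6.

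HOXA7 and HOXA13 were the HOXA genes without a peak at a start. HOXA7 missed the limit narrowly, with a summit of fold 4.36 at 3.12 kb from its nearest TSS. HOXA13, which shapes the distal limb and the genitourinary tract, had its nearest summit 11.1 kb away. On the other side of the limit stood HOXD12 at 2.22 kb and HOXC6 at 2.20 kb.

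In HOXC the strongest values were at the posterior end. HOXC12 had 27.0 and HOXC13, a gene of hair and nail formation, 11.2, from a summit 164 bp upstream of the HOXC13 start that the window rule places in the flank. HOXC4 and HOXC6 had 7.53, from a single peak 3724 bp wide whose summit lay 1.16 kb from a HOXC4 start and 2.20 kb from a HOXC6 start. HOXC9 had 6.69, HOXC11 6.55, HOXC5 4.13 and HOXC8 3.74. HOXC10 alone had none, its nearest summit being 10.4 kb away. The highest fold of the genes named thus lay at a posterior gene in HOXC and at the anterior gene HOXA3 in HOXA.

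HOXB and HOXD carried few and weak peaks. HOXB4, known from blood stem cells, and HOXB3 shared a fold of 4.63, and HOXB9 had 3.52. The prostate gene HOXB13 lay 102 kb from the nearest summit of any kind. In HOXD a single summit 2.22 kb upstream of HOXD12 and 4.86 kb from the start of the digit gene HOXD13 had a fold of 4.75. None of these was called before 72 h. The other HOXD window peaks lay at promoters of genes that are not HOX genes, LNPK at 7.29 and MTX2 at 8.05.

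**Figure D4:**
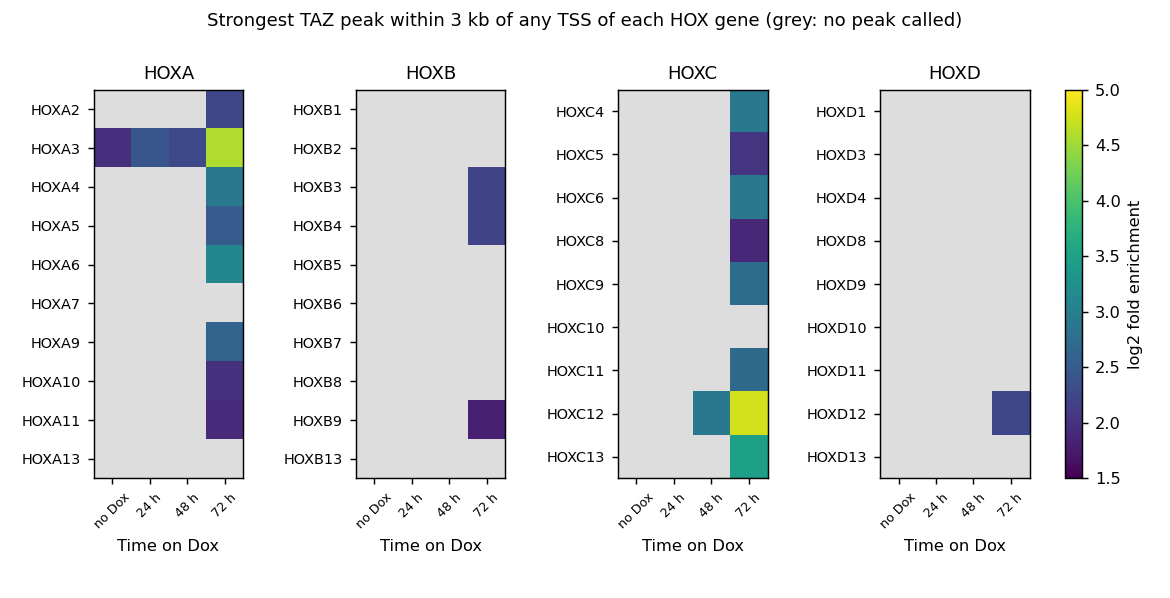
Fold enrichment, as log2 in colour, of the strongest TAZ peak within 3 kb of any start of each HOX gene reported (rows, in order of paralog number, 1 panel per cluster) at each time on Dox (columns), with grey where no peak was called. Among the genes shown, HOXA3 and HOXC12 have colour before 72 h, and the HOXB and HOXD panels are almost all grey.

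**Figure D5:**
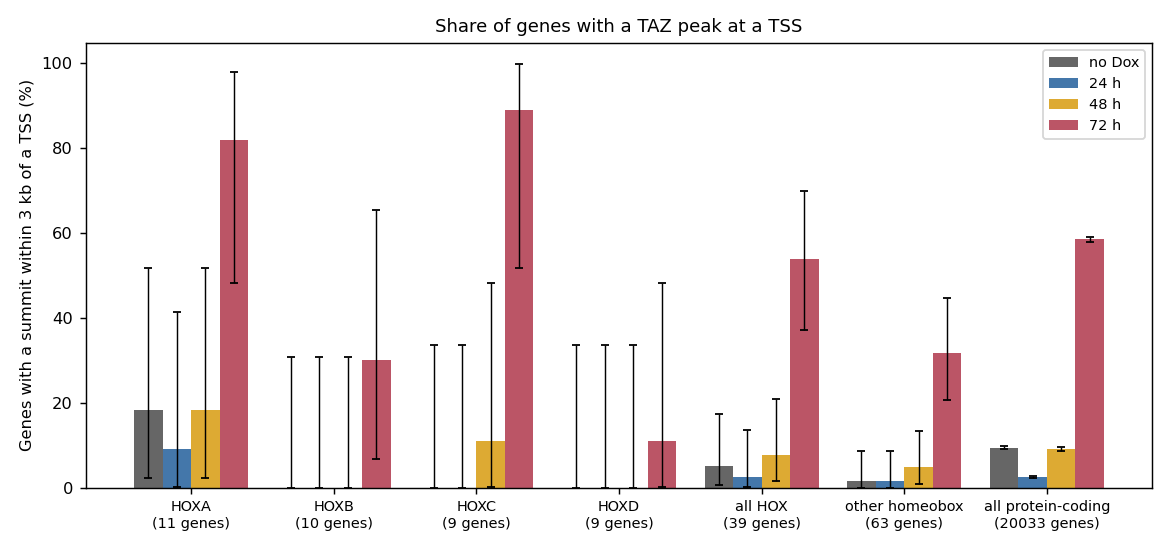
Percent of genes with a TAZ summit within 3 kb of a start (vertical axis) for each HOX cluster, all 39 HOX genes, 63 other homeobox genes and all protein-coding genes (horizontal axis), with bars by time on Dox and lines as exact 95% binomial intervals. At 72 h HOXA reaches 81.8% and HOXC 88.9%, HOXD 11.1%, and all protein-coding genes 58.4%.

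At 72 h the shares by position along the body axis lay closer together than those by cluster. Among the anterior genes of paralog groups 1 to 3, 2 of 8 carried a peak in untreated cells, then 1, 2 and 4 at the successive Dox times. The central genes of groups 4 to 8 had 0 of 15 at the first 3 times and 8 at 72 h. The posterior genes of groups 9 to 13 had 0 of 16 in the first 2 lists, 1 in the 48 h list and 9 in the 72 h list. The shares at 72 h were thus 50% (15.7 to 84.3), 53.3% (26.6 to 78.7) and 56.2% (29.9 to 80.2). These intervals overlap and include the 58.4% of all protein-coding genes. With the canonical start alone the shares were 37.5% (8.52 to 75.5), 33.3% (11.8 to 61.6) and 56.2% (29.9 to 80.2), against 53.3% of all protein-coding genes. HOXC has no gene of groups 1 to 3, so position and cluster are partly mixed. In paralog groups 4 and 9, 3 of 4 members carried a peak, in each group all but the HOXD one, and in group 7 neither HOXA7 nor HOXB7 did.

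Non-coding genes of the clusters shared these peaks. At 72 h peaks lay within 3 kb of starts of HOXA-AS2 (fold 23.9), HOXA-AS3 (8.80), HOXA10-AS (6.15), HOXA11-AS (3.82), HOXC13-AS (11.2), HOXC-AS1 (6.69) and HOTAIR (6.55), a HOXC transcript studied for its link to Polycomb and breast cancer. None was called at a start of HOTTIP, HOXB-AS1 or HAGLR. Except for HOXA-AS2, these lncRNAs had no peak before 72 h. They overlap HOX genes on the opposite strand, and ChIP does not separate strands.

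Of the HOX microRNAs, those with a peak over the hairpin at 72 h were MIR196B within the annotated HOXA9 locus (fold 5.26) and MIR615 within HOXC5 (4.13). Their RefSeq mature sequences on GRCh38.p14 are given with the seed, bases 2 to 8, in capitals, beside miR-196a-5p, which is made from HOXB and HOXC and has the same seed.
miR-196b-5p: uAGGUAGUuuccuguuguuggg
miR-196a-5p: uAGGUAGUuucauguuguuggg
miR-615-3p: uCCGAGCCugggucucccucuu

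The miR-196 family is known to target HOX transcripts. No summit lay within 3 kb of either miR-196a hairpin, MIR196A1 in HOXB (6.08 kb) or MIR196A2 in HOXC (8.09 kb), so of the genes with this seed only the HOXA copy carried a peak. For miR-10, which lies next to the group 4 genes, the nearest summit was 2.91 kb from MIR10A in HOXB and 52.8 kb from MIR10B in HOXD.

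Near their summits, peaks inside the clusters held no TEAD or AP-1 consensus. Within 100 bases of the summit, 0 of 29 cluster peaks at 72 h held the TEAD consensus, which allows a share of up to 11.9% (exact binomial limit), against 27.7% of all peaks and 18.2% of all promoter peaks. AP-1 was in 0 of 29, with the same limit of 11.9%, against 16.0% of all peaks and 9.90% of all promoter peaks. The limit thus lies above the AP-1 share of promoter peaks. Over the whole peak interval TEAD was in 4 of 29 (13.8%, 3.89 to 31.7), against 43.0% of all peaks and 33.4% of all promoter peaks. AP-1 was there in 2 of 29 (6.90%, 0.846 to 22.8), against 31.1% and 22.7%. Its interval just includes the share of promoter peaks. In the flanks 8 of 13 held TEAD within 100 bases of the summit (61.5%, 31.6 to 86.1) and 2 held AP-1. Among the 8 is the HOXC13 summit, 164 bp upstream of that gene's start, which the window rule places in the flank. Over the whole list 35.1% of peaks away from starts held TEAD within 100 bases. The median GC content of these stretches was 61.2% inside the clusters and 51.7% in the flanks. Over the whole peak interval 10 of 13 flank peaks held TEAD (76.9%, 46.2 to 95.0) and 9 held AP-1 (69.2%, 38.6 to 90.9). Of all peaks away from starts, 50.4% held TEAD and 37.6% AP-1 there. The part of distance from starts and of GC content in the difference was not tested. The shorter core GGAAT, on either strand, was in 6 of 29 cluster peaks (20.7%), against 42.8% of all promoter peaks.

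At the earlier times the summits inside the clusters, 3 without Dox, 1 at 24 h and 3 at 48 h, also held no TEAD consensus within 100 bases, while all peaks held it at 16.4%, 52.2% and 41.8%. Over the whole interval 1 of 3, 1 of 1 and 1 of 3 held it. Such small numbers set no useful limit. GGAAT was in 2 of 3, 1 of 1 and 3 of 3 of them.

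RefSeq promoters, from 250 bases before to 50 after a gene start on GRCh38.p14, were found for 20 of the 39 HOX genes, and 5 of them (25%) held the TEAD consensus, against 5.27% of 15345 protein-coding promoters. The 5 were HOXA10, HOXC4, HOXC5, HOXD8 and HOXD10. HOXC4 and HOXC5 have the same entry, so the same sequence was counted for both. HOXB1 was the only HOXB gene among the 20, and HOXC4 and HOXC5 were the only HOXC genes. The share therefore does not stand for all 39 genes, and no interval was computed for it. None of the 20 held AP-1 (all 3.68%). The HOXC4 and HOXC5 entry lies under the 3724 bp HOXC peak, although the summit is farther in, and no TAZ peak was called near the HOXD10 entry. They are printed as examples with and without a peak, in the direction of the gene and with the consensus in capitals.
HOXC4 and HOXC5, chr12:54016638-54016937, + strand: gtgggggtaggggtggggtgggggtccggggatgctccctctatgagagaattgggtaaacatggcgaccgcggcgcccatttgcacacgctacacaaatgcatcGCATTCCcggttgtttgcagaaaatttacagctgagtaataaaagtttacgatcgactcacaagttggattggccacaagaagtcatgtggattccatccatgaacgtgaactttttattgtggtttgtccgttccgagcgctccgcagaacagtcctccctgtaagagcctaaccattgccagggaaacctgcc
HOXD10, chr2:176116528-176116827, + strand: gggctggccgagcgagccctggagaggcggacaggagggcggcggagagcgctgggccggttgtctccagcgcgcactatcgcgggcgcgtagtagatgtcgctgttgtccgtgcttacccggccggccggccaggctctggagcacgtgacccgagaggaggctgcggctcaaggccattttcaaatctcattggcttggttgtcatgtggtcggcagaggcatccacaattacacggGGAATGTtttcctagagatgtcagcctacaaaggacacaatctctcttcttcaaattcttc

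Thus HOXD8 and HOXD10 held the consensus and had no summit within 11.2 kb of a start at 72 h. HOXC4 and HOXC5 held it and had a peak at a start. HOXA10 held it in its entry at chr7:27179812-27180111, but its peak lay at another start. The summits on either side of that entry were at chr7:27173104 and chr7:27184507. HOXA2, HOXA3, HOXA4, HOXA6, HOXA9, HOXA11 and HOXD12 had a peak at a start and a promoter entry without it. HOXA7, HOXA13, HOXB1, HOXD1, HOXD3, HOXD4, HOXD11 and HOXD13 had neither. The peak can thus belong to another start than the entry, as at HOXA10 and also at HOXA6, whose nearest summit lay 3180 bp from its canonical start.

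Partners and regulators of HOX genes were counted in the same way, against the same 58.4% at 72 h. TALE homeodomain proteins bind DNA together with HOX proteins, and 5 of 9 had a peak at 72 h, among them PKNOX1 (22.9), MEIS2 (9.98), MEIS1 (5.56) and PBX3 (4.18). Of 30 regulators of HOX genes, 5, 3, 5 and 23 (76.7%, 57.7 to 90.1) had a peak in the successive lists.

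The retinoic acid receptor gene RARA was the regulator with a peak in every list, at 5.08, 4.74, 6.69 and 22.4. KMT2A, which keeps HOX genes active, had 11.02 at 24 h and 21.8 at 72 h and no called peak between. The Polycomb genes SUZ12 (12.1), BMI1 (14.9), EED (9.19) and EZH2 (7.25) had peaks at 72 h only. CTCF, which sets domain borders in the clusters, had 6.94 at 48 h and 7.16 at 72 h. No peak was called at CDX1, CDX2 or CDX4.

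The lists differ in depth, which was read from the peaks: the background coverage was 1.49, 1.42, 2.84 and 2.01 fragments and the lowest summit called had 9, 9, 12 and 9, for no Dox, 24, 48 and 72 h. Of 11 basal breast epithelial marker genes, 10 had a peak at a start at 72 h (90.9%, 58.7 to 99.8), TP63 being without one. The share of all protein-coding genes was 58.4%. The other lists of 6 genes each had 3 for neuron, 1 for liver, 1 for muscle and 0 for blood, including TNNT2 of muscle at 48.8. Peaks are no measure of RNA, so these counts describe promoters and do not check the identity of the cells.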

How the data were processed

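MCF10A cells with inducible TAZ-4SA were analysed as 4 peak lists, 1 per condition. Libraries were grouped by their titles. According to the study's methods and the submitters' processing notes, the authors mapped trimmed reads to hg38 with BWA and used MACS2 for peak calling with a false discovery rate of 0.01. The tool versions, and whether IgG served as the control, are not given in the sources. The deposited lists give fold enrichment over local background as a ratio, and the authors' −log10 p-value and −log10 q-value for each peak.

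Summit fragments and background were solved from fold (pseudocount 1) and Poisson p, which returned 100% of the deposited p-values within 0.003. The solution was tested on simulated data. Depth was read from these because total reads are not in the lists. Genes and starts came from GENCODE version 44 and sequences from hg38. 8.36% of the 31-base words of the HOXA window, 7.41% in HOXB, 3.50% in HOXC and 5.05% in HOXD also occur in the 261 alternate sequences of the reference, where reads can map to more than 1 place, and 1 of the 42 window peaks at 72 h (in HOXB) held such a word at its summit.

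The HOX genes and lists were chosen with earlier results of these data known. Named were HOX genes, genes of the windows and of the lists, and the window peaks without Dox, at 24 h and the 5 strongest per window, except for a few items that are not reported here. Intervals are exact Poisson or binomial at 95%. Alternatives were the flank (0 and 50 kb), distance to a start (1 and 10 kb), outermost start, −log10 q of at least 5, scaling to the lowest background coverage, 50% overlap, motif window, and, added after seeing the data, the canonical start and the core GGAAT. Analysis used Python 3.11.15, pandas 2.3.3, SciPy 1.17.1, pysam 0.24.0 and samtools 1.23.1.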

Additional observations from a re-analysis of the deposited data

How the results depend on the processing

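Over 62 results, 174 alternative values stayed close to those reported and 80 moved. Counts are given in the order of the alternatives, and no value here has a replicate behind it. With no flank, peaks in all windows were 1 at 24 h and 3 at 48 h, in HOXA 1 at 24 h, in HOXB 0 at 48 h and 3 at 72 h, in HOXC 0, 0, 1 and 6 over the 4 lists, and in HOXD 1 at 72 h. With 50 kb, HOXC had 0, 0 and 1 before 72 h and HOXD 1 at 72 h. With −log10 q of at least 5, no Dox kept 1 window peak, 0 in HOXA and 0 HOX genes (0 anterior), and HOXA kept 1 at 24 h. The step from no Dox to 24 h then changed direction, with 1 and 2 window peaks in place of 4 and 3, 0 and 1 HOX genes in place of 2 and 1, and 0 and 1 HOXA peaks in place of 3 and 2.

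Within 1 kb of a start, HOX genes with a peak numbered 1, 0 and 1 at the first 3 times, anterior genes 1, 0 and 1, posterior genes 0 at 48 h and central genes 5 at 72 h, and all protein-coding genes 308 at 24 h and 1024 at 48 h. Within 10 kb HOX genes were 4 without Dox and 2 at 24 h (anterior 2, central 1 without Dox), and all genes 933 and 3398 at 24 and 48 h. With the canonical start HOX genes were 1 without Dox and 0 at 24 h, anterior genes 1, 0 and 1, central genes 5 at 72 h, and all genes 278 and 943. With the outermost start HOX genes were 1 and 0, anterior genes 1, 0 and 1, and all genes 278 and 965. At an overlap of 50% of both intervals, 72 h window peaks matched 0, 1 and 4 peaks of the earlier lists in place of 4, 3 and 7.

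TEAD in window peaks changed to 0 without Dox and 4 at 72 h within 50 bases of the summit, to 2, 3, 4 and 14 in the whole interval, and to 3, 3, 6 and 16 with GGAAT. AP-1 changed to 0 at 48 h and 1 at 72 h within 50 bases of the summit, and to 2, 1, 3 and 11 in the whole interval. On the scale of summit fragments over background coverage the highest values were 10.7, 14.1, 15.1 and 42.9 in HOXA, 23.6 and 58.8 in HOXB at 48 and 72 h, 12.7, 48.7, 66.5 and 143 in HOXC and 18.9 in HOXD at 72 h. The strongest HOXA peak without Dox then changed from the HOXA-AS2 start to the HOXA3 intron. Scaling every list to the lowest background coverage read from the peaks, with 1 threshold, and counting peaks by any overlap moved no count by more than 1.5 times.

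No paired analysis was possible because each condition has 1 library per antibody, and leaving out a replicate was not possible for the same reason. The total reads of each list are not known here. The lowest summit called had 9, 9, 12 and 9 fragments in the 4 lists, and weaker sites were not called.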

Other observations

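Of a list of 63 developmental homeobox factors, 1, 1, 3 and 20 had a peak at a start in the lists for no Dox, 24, 48 and 72 h (at 72 h 31.7%, exact binomial interval 20.6 to 44.7), where 58.4% of all protein-coding genes had one. LHX4, a LIM homeobox factor of pituitary and motor neuron development, had folds of 9.58 at 24 h, 14.5 at 48 h and 47.4 at 72 h, above every peak at a HOX gene start in the same list. DLX4 was the gene of the list with a peak without Dox, at 6.93, and it had 10.6 at 72 h. IRX2 (4.68 and 9.70) and PITX3 (7.36 and 8.09) had peaks at 48 and 72 h. EVX1 and EVX2, which adjoin the 5′ ends of HOXA and HOXD, had no peak in any list.

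Outside the 100 kb flanks, the nearest summit to the HOXA cluster was 891 kb away in untreated cells, then 842, 174 and 134 kb away at the successive Dox times. For HOXB these distances were 294, 294, 282 and 102 kb, and for HOXD 447, 248, 248 and 123 kb. For HOXC they were 133, 1416, 168 and 133 kb. The lists grew from 2431 peaks without Dox to 38667 at 72 h, and the distances were not adjusted for that.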
